A study of Mus musculus with 2 samples.

Results

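The genes described here are 32 cell-cycle genes, out of the 33696 genes in the deposited matrices, followed across tumour cells, CD8 T, CD4 T, Foxp3 T, NK, B, plasma-gated cells and macrophages of mouse lung tumours. They were chosen by symbol as well-known genes of dividing cells, and each symbol matched 1 row in both libraries. The set holds 14 genes that act in DNA replication or its preparation (here the S members), 17 genes that act in mitosis or are known to peak close to it (the mitotic members), and Stmn1, which encodes a protein that destabilises microtubules and was put in neither set.

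The study took cells from tumours of LLC, a mouse lung carcinoma line grown in mice, and made 2 single-cell libraries with 10x Chromium 3′ chemistry. The first is labelled Dusp2 KO, from mice without Dusp2 (Dusp2-/-), and the second Dusp2 WT, from wild-type mice. Dusp2 encodes a nuclear phosphatase that removes phosphates from MAP kinases. Both libraries are labelled as tumour-infiltrating lymphocytes, and no treatment is given for either. The labels do not say how old or how many the mice were, how cells were selected, or what the Dusp2 deletion removes.

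In a dividing cell, licensing proteins such as the Mcm helicase open the replication origins, enzymes of nucleotide supply feed the replication fork, and cyclins with their kinase Cdk1 then drive the cell into mitosis, where the kinetochore, the spindle motors and the anaphase-promoting complex separate the chromosomes. Most of these genes are transcribed in a wave once per cycle, so that their RNA marks cycling cells. In tumours the cycling cells include the tumour cells, activated T and NK cells, and B cells of germinal centres, which divide fast.

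With 1 library per genotype no difference has a replicate check, and no test was made. Every interval below is a 95% interval that covers counting error only, and genotype, animal, tumour and library preparation cannot be told apart. For sums of molecules the intervals treat each molecule as independent and leave out the spread between cells. The label of the molecule also differs, polyA RNA for KO and total RNA for WT. Kept cells numbered 12636 in the KO library and 9765 in the WT library, with a median of 4796 UMIs (unique molecules) per KO cell and 8598 per WT cell. The libraries share 31 barcode sequences. Lymphocyte gates held 50.9% of the kept KO cells and 17.4% of the kept WT cells, so the label of lymphocytes covers only a share of either library. Dusp2 RNA in the gated immune classes was at 0 to 8.17 CPM (UMIs of the gene scaled to a common total of the class) in KO, in CD8 T, CD4 T, Foxp3 T, NK cells and macrophages, against 57.8 to 1060.15 CPM in WT. In tumour cells, which come from the LLC line, it was at 71.5 CPM in the KO library and 82.5 CPM in the WT library.

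Cells were classed by raw UMIs of marker genes, for example at least 3 UMIs of Rhox5, Krt8, Krt18 and 4 Y-chromosome genes together with at most 1 UMI of Ptprc (CD45) for tumour cells. To compare cells of unequal depth, each cell was thinned at random to 2000 UMIs. A cell was called dividing with at least 2 UMIs from at least 2 mitotic members or at least 3 UMIs from at least 2 S members. A stricter call asked for 4 mitotic or 6 S UMIs. Mature dendritic cells, which are known to be out of cycle, gave the background of the call: 8.41% of them passed it in KO and 7.89% in WT, and 2.80% in KO and 2.63% in WT passed the stricter call. Without the dendritic cells that held at least 3 tumour UMIs, the shares were 6.40% in KO and 5.88% in WT, and by the stricter call 0.985% in KO and 1.57% in WT. Shares near these levels cannot be read as division. This background is that of 1 class. Neutrophils, the other class planned as background, were few: 2 of 13 passed each call in KO and 0 of 25 in WT. The dendritic background may be too low for lymphocytes, where the mitotic member Cenpa was often found without any other, as described further on.

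By this call 2821 KO cells and 1578 WT cells were dividing. Tumour cells made up 24.0% of the dividing KO cells (22.4 to 25.6%) and 27.4% of the dividing WT cells (25.2 to 29.6%). The other dividing cells came from different classes in the 2 libraries. B cells made up 20.8% of the dividing KO cells and plasma-gated cells 13.9%, against 1 B cell and no plasma-gated cell among the dividing WT cells. Macrophages were 4.998% of the dividing KO cells and 25.3% of the dividing WT cells. CD8 T cells were 4.01% in KO and 5.20% in WT. A further 17.7% of the dividing KO cells and 21.1% of the dividing WT cells carried markers of more than 1 class and were placed in none.

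Among the 6 classes compared, the dividing share differed between the libraries by more than counting error in tumour cells by both calls, and in NK cells by the stricter call. Of the tumour cells with 2000 UMIs, 677 of 1068 were dividing in KO, or 63.4% (60.4 to 66.3%), and 432 of 1060 in WT, or 40.8% (37.8 to 43.8%). The log2 ratio of the shares, KO over WT, was 0.64 (0.51 to 0.76). By the stricter call the shares were 42.3% in KO and 22.3% in WT, a log2 ratio of 0.93 (0.74 to 1.12). No mitotic UMI was found in 30.5% of the thinned KO tumour cells and 48.9% of the thinned WT ones. This is non-detection at 2000 UMIs and does not mean that the cells were silent for these genes. By the mean, the dividing cells themselves carried similar mitotic signal, with 4.63 mitotic UMIs per dividing KO cell and 4.49 per dividing WT cell. The medians were 4 mitotic UMIs in KO and 3 in WT. S members averaged 3.38 UMIs in KO and 2.66 in WT.

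**Figure D1:**
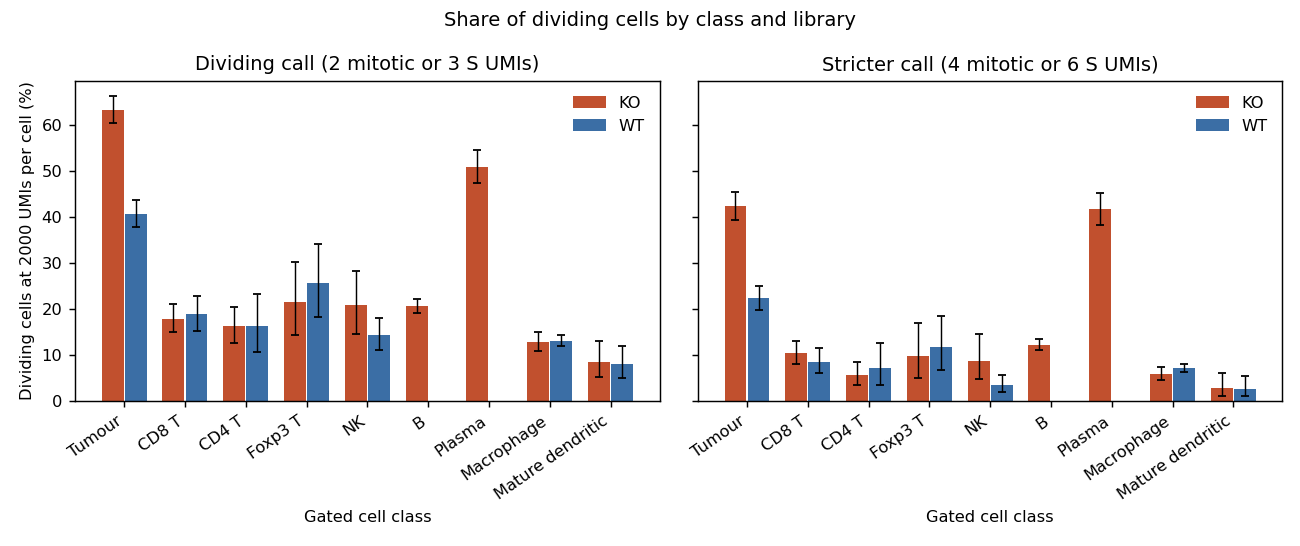
Share of dividing cells (y axis, % of cells thinned to 2000 UMIs) in each gated class of the KO library (orange) and the WT library (blue), by the dividing call on the left and the stricter call on the right; bars are shares and whiskers exact 95% binomial intervals, which cover counting error only. KO tumour cells stand at 63.4% and 42.3%, WT tumour cells at 40.8% and 22.3%, while CD8 T cells, CD4 T cells, macrophages and the background class of mature dendritic cells have whiskers that overlap between the libraries; B and plasma-gated cells are drawn for KO alone, since WT held 15 and 0 of them.

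The tumour difference depends on how depth is handled. KO tumour cells had a median of 15719 UMIs and WT tumour cells 22492.5, and with all UMIs counted 89.4% of KO and 86.7% of WT tumour cells passed the call, a log2 ratio of 0.04. Sorted by their depth before thinning, tumour cells of 10000 to 20000 UMIs were dividing in 67.4% of KO (62.4 to 72.1%) and 34.1% of WT cells (29.1 to 39.5%). Between 20000 and 40000 UMIs the shares were 64.2% in KO and 42.1% in WT. Among cells of 40000 UMIs or more, 69.3% of 75 KO cells and 74.7% of 95 WT cells were dividing, with overlapping intervals. In shallower cells the shares were 52.8% of 89 KO and 28.6% of 28 WT cells at 2000 to 5000 UMIs, with overlapping intervals, and 57.3% of 211 KO and 25.8% of 89 WT cells at 5000 to 10000 UMIs. The intervals of the 2 libraries were thus apart between 5000 and 40000 UMIs and overlapped in the shallowest and the deepest cells.

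**Figure D2:**
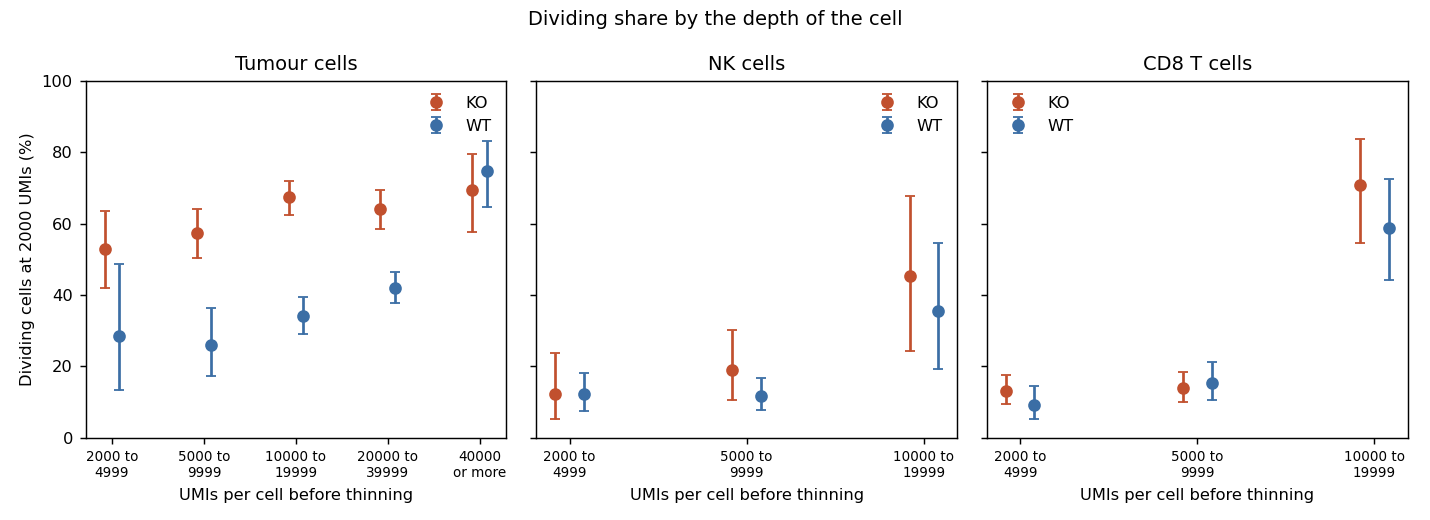
Share of dividing cells (y axis, % at 2000 UMIs) by the number of UMIs the cell had before thinning (x axis) in tumour, NK and CD8 T cells of the KO library (orange) and the WT library (blue), with exact 95% binomial intervals. KO tumour cells lie above WT tumour cells under 40000 UMIs, as at 10000 to 20000 UMIs with 67.4% in KO and 34.1% in WT, and the order turns in the deepest bin; in CD8 T cells the share climbs to 70.7% in KO and 58.8% in WT at 10000 to 20000 UMIs.

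All 32 members were above a mean of 10 CPM in tumour cells, and all 32 were higher in KO, by a median log2 ratio of 0.47 against -0.02 over the 7860 genes at that level. The range ran from 0.14 for Stmn1 to 1.13 for Rrm2. Of the members, 11 were higher by at least 1.5-fold, where 2.66% of all genes were, and 0 were lower by that much, where 5.01% of all genes were. Rrm2, the regulated subunit of the reductase that makes deoxynucleotides, stood at 141 CPM in KO and 64.7 CPM in WT tumour cells. Cdk1, the kinase that starts mitosis, was at 131 CPM in KO and 72.7 CPM in WT, a log2 ratio of 0.84 (0.76 to 0.93). Aurkb, the kinase of the chromosomal passenger complex, was at 33.9 CPM in KO and 18.3 CPM in WT (0.89, 0.72 to 1.07). Ranked by the interval bound nearest 0, these 3 came first among the members.

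The other named members in tumour cells ran the same way. Top2a, the topoisomerase that untangles sister chromosomes, was at 300.2 CPM in KO and 181 CPM in WT, a log2 ratio of 0.73 (0.68 to 0.79). Pcna, the sliding clamp of DNA polymerase, was at 152 CPM in KO and 89.5 CPM in WT (0.76, 0.68 to 0.84). Mki67, which coats mitotic chromosomes, was at 95.2 CPM in KO and 68.5 CPM in WT (0.48, 0.38 to 0.57). Found in 51.7% of KO and 41.7% of WT tumour cells, Mki67 also differed in the number of cells that carried it. Among the nucleotide enzymes and licensing factors, Dut, which destroys dUTP, was at 296 CPM in KO and 224 CPM in WT (0.40), and Mcm2 to Mcm7 had log2 ratios between 0.31 for Mcm7 and 0.59 for Mcm4.

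S and mitotic members were higher together in KO tumour cells. Summed over the class, S members gave 1180.4 CPM in KO and 812 CPM in WT, and mitotic members 1638 CPM in KO and 1127 CPM in WT. Both sums had a log2 ratio of 0.54. The balance, the log2 ratio of S to mitotic UMIs, was -0.47 in KO and -0.47 in WT, a difference of 0.00 (-0.04 to 0.04). Within dividing cells alone the difference was 0.30 (0.17 to 0.43), KO towards S. Of the dividing tumour cells 42.4% passed both the S and the mitotic call in KO and 32.6% in WT.

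Genes outside the members pointed the same way in tumour cells. Of 31 other S genes, 29 were measured and 28 were higher in KO, with a median log2 ratio of 0.47; Ccne2, a cyclin of the entry into S phase, led at 19.9 CPM in KO and 9.58 CPM in WT (1.06, 0.82 to 1.29). Of 38 other mitotic genes, 34 were measured and all were higher in KO, with a median of 0.52. The G1 cyclins and kinases, which act earlier, had a median of 0.18 over 8 genes, with Cdk6 lower at 245 CPM in KO and 299.6 CPM in WT (-0.29). Among inhibitors of the cycle and quiescence genes the median was 0.25 over 7 measured genes. Markers of other classes in tumour cells moved too: macrophage markers summed to 27.1 CPM in KO and 57.7 CPM in WT, B markers to 18.7 CPM in KO and 5.25 CPM in WT, and the plasma-gate markers to 22.2 CPM in KO and 0.119 CPM in WT, with a UMI in 32.1% of KO and 0.282% of WT tumour cells. Mature dendritic markers summed to 226 CPM in KO and 199 CPM in WT tumour cells, mostly from 1 gene at 219 CPM in KO and 192 CPM in WT. A tumour cell that reached 10 UMIs of them was placed in no class, which deep cells do most readily. Cells with markers of more than 1 class, whatever the classes, had a median of 13025 UMIs in KO and 31735.5 in WT. The part of these markers and of this loss in the result was not tested.

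**Figure D3:**
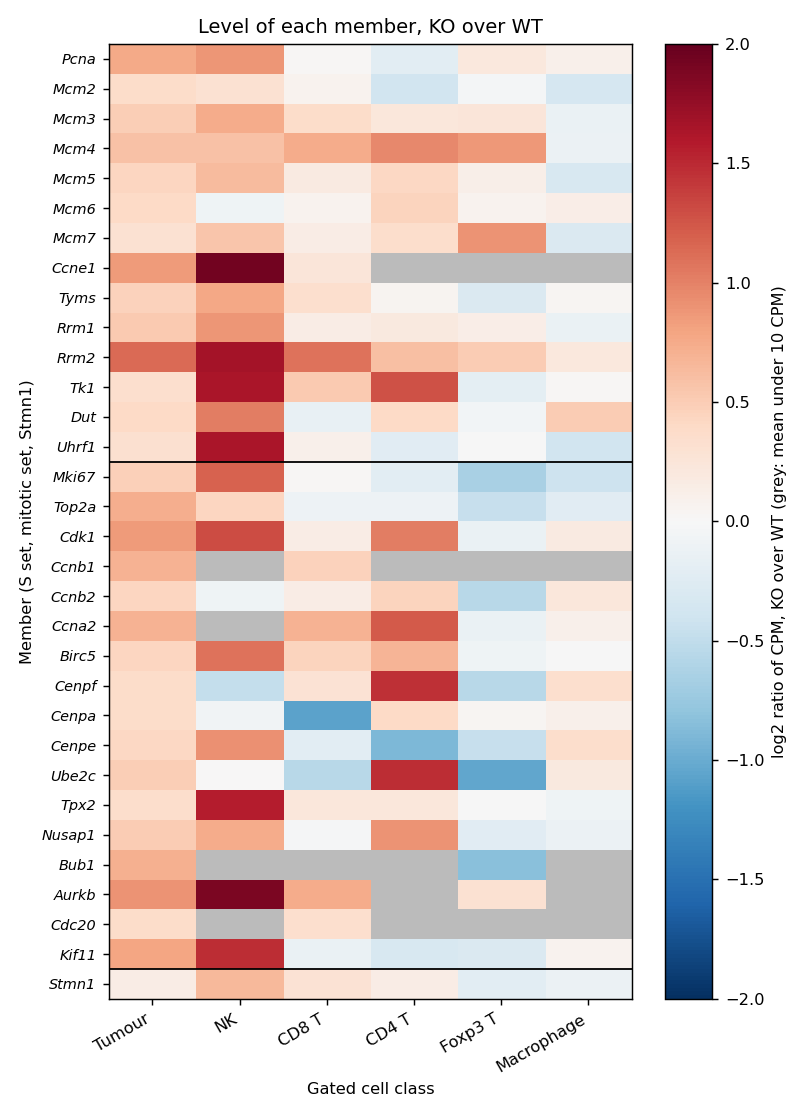
Log2 ratio of CPM, KO over WT (colour, red higher in KO, blue lower in KO), of each of the 32 members (rows, S set, mitotic set and Stmn1 from top to bottom) in 6 gated classes (columns); grey marks a mean under 10 CPM. The tumour column is red throughout, between 0.14 for Stmn1 and 1.13 for Rrm2, the NK column is mostly red, and Cenpa in CD8 T cells is blue at -1.07.

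Since S and mitotic members were higher side by side in tumour cells, the promoters of the 2 S and 2 mitotic members with the most UMIs over all kept cells of both libraries are shown. The sequences come from RefSeq on GRCm38.p6, from 250 bases before to 50 bases after the transcription start, 5′ to 3′ on the gene's strand. Capitals mark CCAAT (or ATTGG on the other strand), the box bound by NF-Y, and TTTGAA (or TTCAAA), the cell-cycle homology region through which the DREAM complex is known to repress mitotic genes outside the cycle. Dut lies at chr2:125247265-125247564 on the plus strand, Pcna at chr2:132253131-132253430 on the minus strand, Top2a at chr11:99024140-99024439 on the minus strand and Cenpa at chr5:30666636-30666935 on the plus strand.
Dut: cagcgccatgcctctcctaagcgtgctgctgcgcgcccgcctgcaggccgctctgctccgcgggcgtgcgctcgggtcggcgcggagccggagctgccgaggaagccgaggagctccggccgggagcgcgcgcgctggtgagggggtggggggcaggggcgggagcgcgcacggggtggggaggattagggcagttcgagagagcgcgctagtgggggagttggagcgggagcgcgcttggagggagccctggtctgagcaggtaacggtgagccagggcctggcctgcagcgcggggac
Pcna: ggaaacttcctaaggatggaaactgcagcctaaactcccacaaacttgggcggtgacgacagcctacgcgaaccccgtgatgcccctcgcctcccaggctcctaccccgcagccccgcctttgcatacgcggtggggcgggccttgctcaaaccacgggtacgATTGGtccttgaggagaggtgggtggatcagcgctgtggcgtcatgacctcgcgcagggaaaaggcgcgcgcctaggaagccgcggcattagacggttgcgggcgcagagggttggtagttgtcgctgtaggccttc
Top2a: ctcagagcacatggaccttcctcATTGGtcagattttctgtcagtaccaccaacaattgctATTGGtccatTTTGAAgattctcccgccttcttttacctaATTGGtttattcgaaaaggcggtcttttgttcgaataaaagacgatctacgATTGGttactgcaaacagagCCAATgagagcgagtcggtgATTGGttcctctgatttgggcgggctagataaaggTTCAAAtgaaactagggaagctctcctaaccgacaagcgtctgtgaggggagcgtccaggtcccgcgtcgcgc
Cenpa: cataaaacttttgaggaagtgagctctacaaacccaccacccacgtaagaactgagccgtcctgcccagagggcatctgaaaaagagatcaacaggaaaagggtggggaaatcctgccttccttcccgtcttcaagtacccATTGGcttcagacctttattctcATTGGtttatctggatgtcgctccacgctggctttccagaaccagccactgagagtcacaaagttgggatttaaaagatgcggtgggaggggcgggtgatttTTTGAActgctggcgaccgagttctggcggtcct
The Dut window holds neither motif and the Pcna window 1 CCAAT box. In the GENCODE M21 annotation Dut starts at chr2:125247190, so its window lies inside the gene and misses the bases before that start. The windows of the other shown genes contain their GENCODE starts. The Top2a window holds 6 CCAAT boxes and 2 homology regions, and the Cenpa window 2 boxes and 1 region.

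A promoter was listed for 27 of the 32 members, 13 of the S set and 14 of the mitotic set; Mcm4, Ccna2, Tpx2, Aurkb and Stmn1 had no entry. Mcm7 and Uhrf1 had 2 promoters each, so the S set has 15. TTTGAA on either strand was in 9 of the 14 mitotic promoters (64.3%), among them Mki67, Top2a, Cdk1, Cenpa, Cenpf, Ube2c and Kif11, and in 1 of the 15 S promoters (6.67%), that of Mcm2. Over all 32851 listed promoters its share was 17.9%. CCAAT on either strand was in 85.7% of the mitotic and 73.3% of the S promoters, against 37.4% of all. The E2F motifs TTTCCCGC, TTTGGCGC, TTTCGCGC and TTTGCCGC were in 5 of the 15 S promoters (33.3%), those of Mcm3, Mcm5, Mcm6, Mcm7 and Uhrf1, in the Cdk1 promoter among the mitotic ones (7.14%), and in 2.26% of all. These are matches of letters in a short window and say nothing of binding, and the Dut window among them lies past the GENCODE start.

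NK cells, the lymphocytes that kill without an antigen receptor, were fewer in the KO library, 167 cells against 418 in WT. In thinned cells 20.8% were dividing in KO (14.6 to 28.2%) and 14.2% in WT (11.002 to 17.95%). The log2 ratio was 0.55, with an interval that spans 0 (-0.02 to 1.12). By the stricter call, 13 of 149 KO cells (8.72%) and 14 of 415 WT cells (3.37%) passed, a log2 ratio of 1.37 (0.32 to 2.43). The shares varied with depth: in cells of 2000 to 5000 UMIs 12.3% were dividing in KO and 12.1% in WT, in cells of 5000 to 10000 UMIs 18.8% of 69 in KO and 11.8% of 221 in WT, and in cells of 10000 to 20000 UMIs 45.5% of 22 in KO and 35.5% of 31 in WT. With every gate threshold doubled, the log2 ratio of the shares was 0.26. Without thinning 57.5% passed in KO and 51.7% in WT, a log2 ratio of 0.15. Each of these NK shares counts Cenpa, described further on. With Cenpa left out, 12.8% of thinned NK cells were dividing in KO (7.86 to 19.2%) and 8.92% in WT (6.36 to 12.1%). Mature dendritic cells then passed in 7.48% in KO and 7.14% in WT.

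Of the 28 members measured in NK cells, 24 were higher in KO, with a median log2 ratio of 0.82 against -0.05 over all 8048 genes. Past 1.5-fold, 19 members were higher and 0 lower, where 7.44% of all genes were higher and 12.5% lower by that much. The median interval of a member reached 0.75 to either side, and with every gate threshold doubled the median log2 ratio was 0.51. Pcna was at 152 CPM in KO and 82.3 CPM in WT NK cells, a log2 ratio of 0.88 (0.58 to 1.18). Dut was at 148 CPM in KO and 73.2 CPM in WT (1.02, 0.70 to 1.33). Rrm2, Aurkb and Ccne1, the cyclin of the entry into S phase, stood farthest from 0 for their error, but on few UMIs: 36 in KO and 28 in WT for Rrm2 (1.67, 0.91 to 2.43), 18 in KO and 12 in WT for Aurkb (1.89), 17 in KO and 11 in WT for Ccne1 (1.93).

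Some NK values rested on very few cells. Mki67 was at 76.8 CPM in KO and 33.7 CPM in WT NK cells, a log2 ratio of 1.19 (0.74 to 1.64), but 29 of its 82 KO UMIs were in 1 cell. Top2a had 30 of 87 KO UMIs in 1 cell. Outside the members, 16 of 19 measured other S genes and 16 of 18 other mitotic genes were higher in KO NK cells, with medians of 0.72 and 0.70. Claspin (Clspn), a mediator of the replication checkpoint, was at 30.9 CPM in KO and 10.2 CPM in WT (1.59, 0.82 to 2.38). Plasma markers in the NK gate summed to 52.5 CPM in KO and were at 0 in WT, and macrophage markers to 60.0 CPM in KO and 130 CPM in WT; their part in the result was not tested.

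CD8 T cells, the cytotoxic T cells, showed no detectable difference in the dividing share of thinned cells. They were dividing in 113 of 632 KO cells, or 17.9% (14.97 to 21.1%), and 82 of 436 WT cells, or 18.8% (15.2 to 22.8%), a log2 ratio of -0.07 (-0.44 to 0.30). By the stricter call 10.3% passed in KO and 8.49% in WT. The call counts Cenpa, described further on; without it 16.1% were dividing in KO (13.4 to 19.2%) and 15.1% in WT (11.9 to 18.9%). Without thinning 41.3% passed in KO and 50.5% in WT, a log2 ratio of -0.29 (-0.47 to -0.11). In both libraries the deepest CD8 T cells were mostly dividing: at 10000 to 20000 UMIs 29 of 41 KO cells (70.7%) and 30 of 51 WT cells (58.8%) passed.

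The CD8 T cells of the 2 libraries differed in make-up. Pdcd1, the gene of the inhibitory receptor PD-1, had a UMI in 152 of 745 KO and 303 of 444 WT cells. Among cells with a Pdcd1 UMI 29.6% were dividing in KO (22.1 to 38.1%) and 21.9% in WT (17.4 to 27.03%), and by the stricter call 21.5% in KO and 10.3% in WT, a log2 ratio of 1.06 (0.39 to 1.73). Among cells without one, 14.7% were dividing in KO and 11.9% in WT, with overlapping intervals. Ccr7, a receptor of naive and memory cells, had a UMI in 323 KO and 84 WT cells; of those, 14.8% were dividing in KO and 26.2% in WT, a log2 ratio of -0.83 (-1.48 to -0.18). Without a Ccr7 UMI, 20.7% were dividing in KO and 17.05% in WT (0.28, -0.17 to 0.73). By the stricter call 14.1% of cells without a Ccr7 UMI passed in KO and 8.24% in WT (0.77, 0.14 to 1.40). Of cells with one, 6.04% passed it in KO and 9.52% in WT (-0.66, -1.81 to 0.49). Whether a UMI of either gene is seen also depends on depth: KO cells with a Pdcd1 UMI had a median of 5688.5 UMIs and those without one 4335.

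Member by member, CD8 T cells were mixed. Of 31 measured members 24 were higher in KO and 7 lower, with a median log2 ratio of 0.15 against -0.10 over all 8074 genes. Higher by 1.5-fold were 4 members, Rrm2, Mcm4, Ccna2 and Aurkb, where 4.92% of all genes were, and lower was 1, Cenpa, where 12.6% of all genes were. Rrm2 was at 67.6 CPM in KO and 32.01 CPM in WT, a log2 ratio of 1.08 (0.73 to 1.44). Mcm4, a subunit of the replicative helicase, was at 81.4 CPM in KO and 48.7 CPM in WT (0.74, 0.45 to 1.04). Ccna2, the cyclin of S and G2, was at 29.9 CPM in KO and 18.4 CPM in WT (0.70, 0.22 to 1.19). Aurkb had 50 UMIs in KO and 22 in WT, with an interval that spans 0.

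The classical markers of division did not differ beyond counting error in CD8 T cells. Mki67 was at 114 CPM in KO and 112 CPM in WT (0.02, -0.19 to 0.24). Top2a was at 123 CPM in KO and 132 CPM in WT (-0.10, -0.30 to 0.10). Pcna was at 143 CPM in KO and 140.2 CPM in WT (0.03, -0.16 to 0.22), and Cdk1 at 27.8 CPM in KO and 25.1 CPM in WT (0.15, -0.29 to 0.60). Lower in KO was Ube2c, the ubiquitin-conjugating enzyme of the anaphase-promoting complex, at 61.5 CPM in KO and 90.1 CPM in WT (-0.55, -0.81 to -0.29). Ube2c overlaps Tnnc2 on the opposite strand, as Ccna2 does Exosc9, and the labels do not say whether counting used the strand, so reads of such pairs may be mixed.

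Among regulators of the entry into the cycle in CD8 T cells, single genes differed in both directions while the lists as a whole lay near 0. The 7 measured G1 cyclins and kinases had a median log2 ratio of -0.07, with 1 higher and 2 lower by 1.5-fold, and the 9 measured inhibitors and quiescence genes one of 0.04, with 1 higher and 2 lower. Myc, which drives growth and entry into the cycle, was at 101 CPM in KO (395 UMIs) and 16.0025 CPM in WT (46 UMIs), a log2 ratio of 2.66 (2.21 to 3.13). Cdk6, a kinase of G1, was at 102 CPM in KO and 208 CPM in WT (-1.02, -1.21 to -0.84). Klf2, which keeps T cells quiescent, was at 629.9 CPM in KO and 191 CPM in WT (1.72, 1.59 to 1.86), while Cdkn1a, an inhibitor of cyclin-dependent kinases, was at 48.8 CPM in KO and 85.2 CPM in WT (-0.81). Rbl2, a pocket protein of the DREAM complex, was at 41.4 CPM in KO and 100.2 CPM in WT (-1.28). These genes were picked after their values were seen from 8 G1 genes and 10 inhibitor and quiescence genes, as the ones past 1.5-fold, with Ccnd1 as the remaining one at 35 UMIs in KO and 51 in WT. RNA of tumour cells in the CD8 T gate was higher in KO, with Rhox5 at 57.4 CPM in KO and 10.4 CPM in WT. Without the cells that had at least 3 tumour UMIs, an alternative chosen after the data were seen, the dividing share had a log2 ratio of -0.13 and Rrm2 one of 1.07.

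Cenpa, the histone H3 variant that marks centromeres, behaved unlike the other 16 mitotic members. In CD8 T cells it was at 143 CPM in KO and 300.2 CPM in WT, a log2 ratio of -1.07 (-1.22 to -0.91), and it had a UMI in 35.4% of KO and 53.4% of WT cells. NK markers in the CD8 T gate summed to 104 CPM in KO and 252 CPM in WT, with a UMI in 23.8% of KO and 54.3% of WT cells, and their part in the Cenpa value was not tested. In NK cells it was at 288 CPM in KO and 302 CPM in WT (-0.07, -0.27 to 0.12), where it made up 43.5% of all mitotic UMIs in KO and 58.5% in WT. In tumour cells it made up 8.69% of mitotic UMIs in KO and 9.77% in WT.

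In NK cells, T cells, macrophages and KO B cells most Cenpa molecules lay in cells with no UMI of any other mitotic member, from 59.6% in WT Foxp3 T cells to 81.8% in KO Foxp3 T cells. Among thinned NK cells without a UMI of any other mitotic member, 35.6% had Cenpa in KO (27.0 to 44.9%) and 35.9% in WT (30.9 to 41.3%). Among such CD8 T cells the share was 19.7% in KO (16.2 to 23.5%) and 30.6% in WT (25.6 to 35.9%), among Foxp3 T cells 29.4% in KO and 26.1% in WT, and among CD4 T cells 21.3% in KO and 21.9% in WT. In KO B cells it was 22.5% (20.7 to 24.3%). Macrophages without another mitotic UMI had it in 9.44% in KO and 8.62% in WT, and tumour cells in 4.12% in KO and 2.81% in WT. The other 16 members, each taken the same way, had a median of at most 1.81% and never more than 11.8% in those classes. Mature dendritic cells, taken the same way, had Cenpa in 9.64% in KO and 9.33% in WT. No other gene overlaps Cenpa in the GENCODE M21 annotation.

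**Figure D4:**
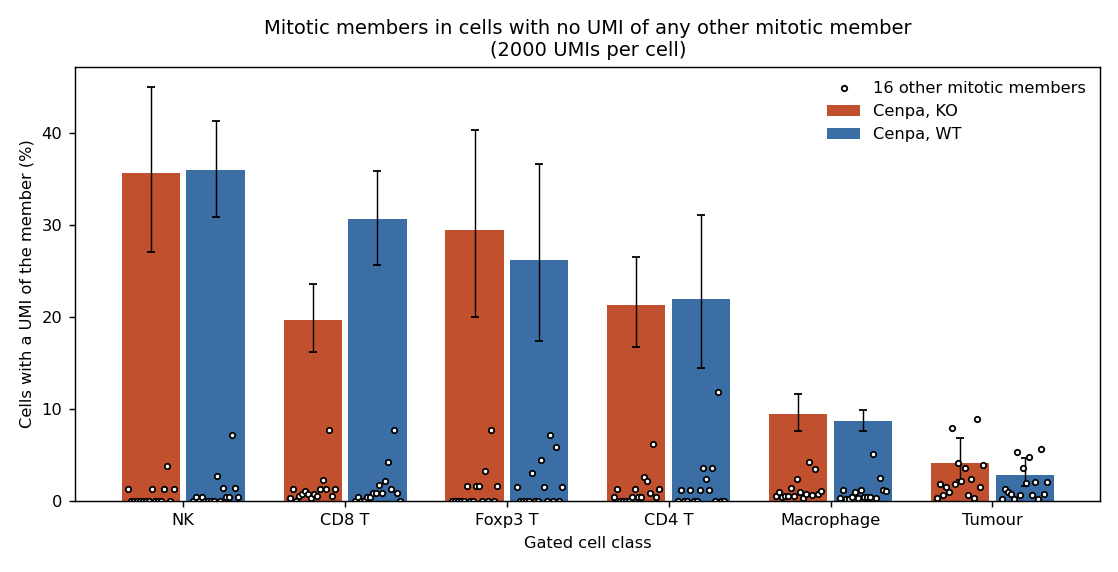
Share of cells with a UMI of Cenpa (bars, KO orange, WT blue) among cells thinned to 2000 UMIs that hold no UMI of any other mitotic member, by gated class; whiskers are exact 95% binomial intervals and circles are the other 16 mitotic members, each computed the same way. Cenpa reaches 35.6% in KO and 35.9% in WT NK cells, and 19.7% in KO and 30.6% in WT CD8 T cells, while every circle in these classes lies at or under 11.8%.

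Leaving Cenpa out, a choice made after the data were seen, changes the S to mitotic balance of T and NK cells. No S member was left out, though single S members were also found without another S member. Among such NK cells 1 member reached 19.2% in KO and 17.8% in WT, and among such CD8 T cells 14.6% in KO and 16.6% in WT. The balance without Cenpa is therefore not a measure of phase alone. With all members the S to mitotic balance of CD8 T cells was 0.08 in KO and -0.35 in WT, a difference of 0.43 (0.32 to 0.54). Without Cenpa it was 0.36 in KO and 0.20 in WT, and the difference 0.16 (0.04 to 0.28). In NK cells the balance was 0.27 in KO and -0.09 in WT with all members, a difference of 0.36 (0.18 to 0.54), and without Cenpa 1.09 in KO and 1.17 in WT, a difference of -0.08 (-0.31 to 0.14). The summed mitotic members of CD8 T cells had a log2 ratio of -0.23 with Cenpa and 0.04 without it, and those of NK cells 0.35 with it and 0.80 without it. Among dividing CD8 T cells 36.3% passed the S call only in KO (27.5 to 45.9%) and 30.5% in WT (20.8 to 41.6%), and 24.8% passed the mitotic call only in KO and 41.5% in WT. Those shares still count Cenpa. Without it 43.1% passed the S call only in KO and 43.9% in WT, and 16.7% the mitotic call only in KO (10.02 to 25.3%) and 27.3% in WT (17.03 to 39.6%). With Cenpa left out, 13.4% of KO and 12.7% of WT CD4 T cells were dividing. The shares were then 18.8% in KO and 21.7% in WT Foxp3 T cells, and 17.8% in KO B cells.

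Foxp3 T cells, the regulatory T cells, leaned towards S in KO by summed UMIs with or without Cenpa, but not detectably by calls per cell. The balance was 0.26 in KO and -0.27 in WT, a difference of 0.54 (0.34 to 0.73), and without Cenpa the difference was 0.63 (0.43 to 0.84). These intervals treat each UMI as independent, while the sums come from few dividing cells. Among dividing Foxp3 T cells 33.3% passed the S call only in KO (15.6 to 55.3%) and 27.3% in WT (13.3 to 45.5%). A single S member was found in at most 25% of KO and 21.3% of WT cells with no UMI of another S member. The dividing share was 24 of 112 cells in KO, or 21.4% (14.2 to 30.2%), and 33 of 129 in WT, or 25.6% (18.3 to 34.0%), which differ by less than counting error. Of 29 measured members 10 were higher and 19 lower in KO, with a median log2 ratio of -0.09 against -0.07 over all 8162 genes. The S members had a median of 0.11 and the mitotic members one of -0.29. Higher by 1.5-fold were 2 members and lower 3, where 9.96% and 15.5% of all genes were. In the Foxp3 T gate tumour markers summed to 28.2 CPM in KO and 66.7 CPM in WT, macrophage markers to 62.1 CPM in KO and 106 CPM in WT, and plasma-gate markers to 52.3 CPM in KO and 0 in WT; their part in the result was not tested.

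The 2 Foxp3 T members higher by 1.5-fold belong to the S set and the 3 lower ones to the mitotic set, out of 29 measured. Neither count stands out from all genes, of which 9.96% were higher and 15.5% lower by that much. Mcm4 was at 129 CPM in KO and 70.7 CPM in WT, a log2 ratio of 0.86 (0.40 to 1.33), and Mcm7, another helicase subunit, which overlaps Ap4m1 and Cops6 on the opposite strand, at 62.2 CPM in KO and 33.4 CPM in WT (0.90, 0.21 to 1.59). On the mitotic side, Mki67 was at 158 CPM in KO and 248 CPM in WT (-0.65, -0.98 to -0.32), and Ube2c at 36.7 CPM in KO and 75.8 CPM in WT (-1.05, -1.75 to -0.38). Bub1, a kinase of the spindle checkpoint, had 8 UMIs in KO and 20 in WT (-0.84, -2.23 to 0.41). Top2a, short of 1.5-fold at 168 CPM in KO and 230.4 CPM in WT, had a log2 ratio of -0.46 (-0.79 to -0.13). Of the KO Top2a molecules 40 of 119 were in 1 cell. With 124 KO and 133 WT cells, these sums come from few dividing cells.

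CD4 T cells without Foxp3 were dividing in 58 of 357 KO cells (16.2%, 12.6 to 20.5%) and 23 of 142 WT cells (16.2%, 10.6 to 23.3%). Of 27 measured members 20 were higher in KO, with a median log2 ratio of 0.39 against -0.07 over all 8123 genes. Past 1.5-fold, 9 were higher and 1 lower, where 10.4% and 17.5% of all genes were. Other cycle genes did not all lie on that side: of 20 measured other S genes 5 were higher and 15 were lower in KO (median -0.07, where the S members had 0.35), and of 22 other mitotic genes 13 were higher (median 0.19, where the mitotic members had 0.44). Macrophage markers in the CD4 T gate summed to 51.9 CPM in KO and 153 CPM in WT, and tumour markers to 21.4 CPM in KO and 64.6 CPM in WT; their part was not tested. Mcm4 was at 101 CPM in KO and 52.0 CPM in WT (0.96, 0.47 to 1.48), and 33.0% of KO and 18.3% of WT cells had a UMI of it. Ube2c was at 95.1 CPM in KO and 34.2 CPM in WT (1.48, 0.89 to 2.11), with 30 of its 196 KO UMIs in 1 cell, and was found in 6.75% of KO and 6.54% of WT cells. Cenpf, a kinetochore protein, had 72 UMIs in KO and 10 in WT (1.46, 0.50 to 2.58), and Cenpe, the kinetochore motor, 38 in KO and 27 in WT (-0.89, -1.64 to -0.12). The balance was -0.07 in KO and 0.04 in WT, a difference of -0.11 (-0.32 to 0.10).

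Mcm4 was higher in KO in each of the 3 T classes, with log2 ratios of 0.74 in CD8 T, 0.96 in CD4 T and 0.86 in Foxp3 T cells, and its level in tumour cells was 61.9 CPM in KO and 41.0 CPM in WT (0.59). In NK cells it was also higher, at 56.2 CPM in KO and 37.5 CPM in WT (0.58, 0.10 to 1.06). In macrophages it was at 21.2 CPM in KO and 23.0 CPM in WT (-0.12, -0.34 to 0.10). Many Mcm4 UMIs of thinned KO T cells lay in cells with no UMI of another S member. The shares were 46% in CD8 T, 50.6% in CD4 T and 45.8% in Foxp3 T cells. The Mcm4 level of these classes thus need not come from cycling cells alone.

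The counts of measured members cover only those with a mean of 10 CPM. Under that level were Bub1 in CD8 T cells, Ccnb1, Ccna2, Bub1 and Cdc20 in NK cells, Ccnb1, Ccne1 and Cdc20 in Foxp3 T cells, and Ccnb1, Ccne1, Bub1, Aurkb and Cdc20 in CD4 T cells and in macrophages. Ccnb1 is the cyclin of mitotic entry and Cdc20 an activator of the anaphase-promoting complex. Among them, Cdc20 had 37 UMIs in KO and 1 in WT CD4 T cells, a log2 ratio of 3.82 (1.26 to 9.17). In macrophages Cdc20 was at 8.36 CPM in KO and 5.05 CPM in WT (0.73, 0.34 to 1.11). With no such floor the median of the members was 0.16 in CD8 T cells, 0.82 in NK cells and 0.03 in macrophages.

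Macrophages showed no detectable difference in the dividing share. They were dividing in 141 of 1101 KO cells, or 12.8% (10.9 to 14.9%), and 400 of 3085 WT cells, or 13.0% (11.8 to 14.2%), a log2 ratio of -0.02 (-0.28 to 0.24). By the stricter call 5.72% passed in KO and 7.03% in WT. Of 27 measured members 14 were higher and 13 lower in KO, with a median log2 ratio of 0.02 against -0.05 over all 7778 genes. No measured member passed 1.5-fold in either direction, where 1.2% of all genes were higher and 2.44% lower. The balance was -0.25 in KO and -0.26 in WT, a difference of 0.01 (-0.06 to 0.08).

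Within macrophages some mitotic members were lower and others higher in KO. Mki67 was at 56.8 CPM in KO and 76.0 CPM in WT (-0.42, -0.55 to -0.29), and Top2a at 67.9 CPM in KO and 79.3 CPM in WT (-0.22, -0.35 to -0.10). Uhrf1, which brings DNA methylation to replicated DNA, was at 11.4 CPM in KO and 14.9 CPM in WT (-0.39, -0.69 to -0.10). Dut was at 37.3 CPM in KO and 26.3 CPM in WT (0.50, 0.33 to 0.68), Cenpe at 21.3 CPM in KO and 16.7 CPM in WT (0.35, 0.12 to 0.58) and Cenpf at 20.9 CPM in KO and 16.5 CPM in WT (0.34, 0.11 to 0.57). Pcna (0.11, 0.01 to 0.20) and Cdk1 (0.19, -0.03 to 0.40) differed little. The 3 higher members were not higher without the macrophages that held at least 3 tumour UMIs: their log2 ratios were then -0.0045 for Dut, 0.03 for Cenpe and -0.04 for Cenpf. Rhox5 in the macrophage gate was at 59.7 CPM in KO and 22.4 CPM in WT. Myc was at 71.7 CPM in KO and 29.7 CPM in WT macrophages (1.27, 1.13 to 1.41).

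B-lineage cells were nearly confined to the KO library, with 3462 B cells in KO and 15 in WT, and 783 cells against 0 in the gate of Jchain, Mzb1 and Tnfrsf17. No comparison of genotypes was made in them. B cells in KO were dividing in 586 of 2850 cells, or 20.6% (19.1 to 22.1%), and 1 of 11 was in WT. Plasma-gated KO cells were dividing in 50.9% (47.3 to 54.5%), where mature plasma cells are known to be out of cycle.

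Dividing cells of the KO B lineage were more frequent among B cells with no UMI of Ighd, the IgD chain of naive B cells. B cells without an Ighd UMI were dividing in 418 of 1094 cells, or 38.2% (35.3 to 41.2%). B cells with an Ighd UMI were dividing in 168 of 1756, or 9.57% (8.23 to 11.04%), where 8.41% of mature dendritic KO cells passed, and 6.40% of those with under 3 tumour UMIs. By the stricter call the share was 26.1% without and 3.53% with an Ighd UMI. Of the dividing cells without an Ighd UMI 48.6% passed both the S and the mitotic call, and of those with one 20.8%. The split by Ighd was chosen after the data were seen.

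The data go against the name of the plasma gate for most of its cells. In 477 of the 783 cells antibody genes made up under 20% of the UMIs; Mef2b, a transcription factor of germinal-centre B cells, was found in 80.9% of these, Rgs13 in 50.1% and the plasma-cell receptor Tnfrsf17 in 3.98%. These cells were dividing in 74.9% (70.7 to 78.7%). In the other 306 cells antibody genes made up at least 20% of the UMIs, Xbp1, the transcription factor of secreting cells, was found in 95.1%. They were dividing in 12.8%, or in 20.8% (15.5 to 26.9%) of the 207 cells that still held 2000 UMIs when antibody genes were left out of the thinning. The split at 20% was chosen after the data were seen, and the gate is called by its markers here.

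**Figure D5:**
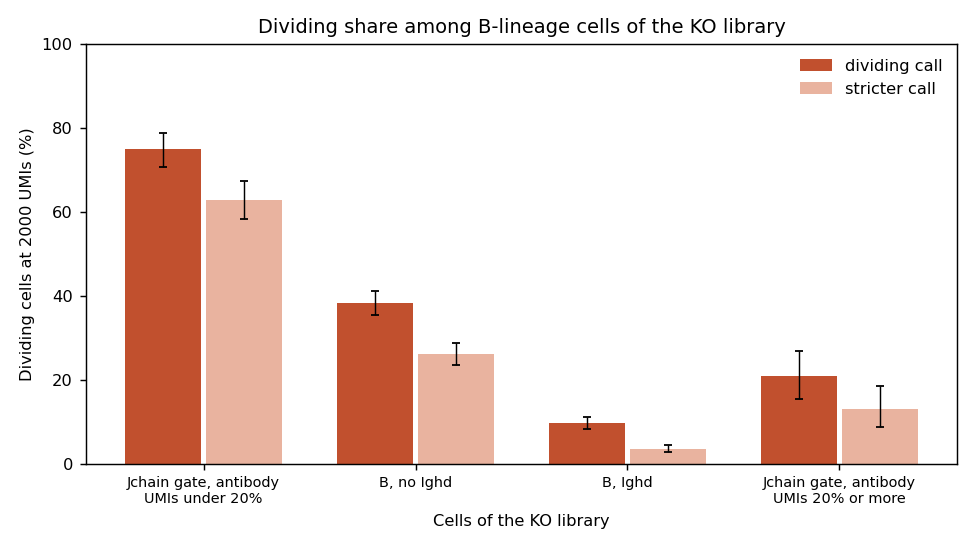
Share of dividing cells (y axis, % at 2000 UMIs) in B-lineage subsets of the KO library, by the dividing call (dark) and the stricter call (light), with exact 95% binomial intervals; gate cells with at least 20% antibody UMIs were thinned over genes other than antibody genes. Gate cells with under 20% antibody UMIs stand highest at 74.9%, and B cells with an Ighd UMI lowest at 9.57% and 3.53%.

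Level by level, the members of the KO B lineage ranged from 7.82 CPM for Ccne1 to 232 CPM for Stmn1 in B cells, and from 23.0 CPM for Ccne1 to 665 CPM for Stmn1 in the plasma gate. Mki67 was at 92.5 CPM (87.7 to 97.5) in B cells and 288 CPM (277 to 298) in the gate, with a UMI in 11.9% and 54.2% of cells. Pcna was at 137 CPM in B cells and 209 CPM in the gate. The balance of S to mitotic UMIs was -0.13 (-0.17 to -0.09) in B cells and -0.50 (-0.53 to -0.47) in the gate.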

How the data were processed

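The authors deposited matrices of raw UMI counts, 1 per library, made from 10x 3′ v3.1 libraries. Cell Ranger 8.0.1 is named per the file headers, while the submitters' processing notes name Cell Ranger 6.0.1, Seurat 4.0.3, Seurat 4.0.4 and the mm10 build; no annotation release or strand setting is stated in them. The authors' cell calling had kept 12744 barcodes in KO and 9890 in WT, with 101532711 UMIs in KO and 113873249 in WT.

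Cells entered with 200 or more detected genes and no more than 20% of UMIs from mitochondrial genes. Classes were gated by raw marker UMIs: at least 3 of Cd3d, Cd3e, Cd3g and Trac for T cells, split by Cd8a, Cd8b1, Cd4 and Foxp3; at least 3 of Ncr1, Klrb1c and Klre1 for NK cells; at least 3 of a set of B-cell markers with Cd79a, Cd79b and Ms4a1 among them for B cells; at least 10 of Jchain, Mzb1 and Tnfrsf17 for plasma cells; at least 10 of Csf1r, Adgre1, C1qa, C1qb and C1qc for macrophages; and the tumour gate given above. Cells that reached more than 1 class, T over NK and plasma over B aside, entered none. The gates of neutrophils and of mature dendritic cells, at least 10 UMIs of their markers each, counted as classes in this. The members, lists and markers were chosen with earlier results of these data known.

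UMIs were summed per class and library and scaled to CPM over all UMIs of the class. Intervals are exact Poisson for levels and exact Clopper-Pearson for shares. They are exact conditional binomial for ratios of levels and a normal approximation for ratios of shares and differences of balance. All cover counting error only, and those on summed UMIs treat each UMI as independent. Members with a mean of at least 10 CPM over both libraries counted as measured. Members named with values were Mki67, Top2a, Pcna and Cdk1 in tumour cells, CD8 T cells and macrophages, in each class the 3 in each direction whose interval bound nearest 0 lies farthest from it, and those against the list's median by 1.5-fold; others were chosen after their values were seen. Doublets were left in, and an alternative leaves out the highest Scrublet scores (1277 cells in KO, 763 in WT), since the automatic threshold called 0 cells in KO and 128 in WT. Scripts used Python 3.11.15, NumPy 2.4.6, SciPy 1.17.1, pandas 2.3.3 and scanpy 1.11.5, and the ratios and the thinning were checked on simulated counts.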

Additional observations from a re-analysis of the deposited data

Results flagged for a closer look

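For 3 of the 32 members the libraries differed by at least 1.5-fold in opposite directions in 2 lymphocyte classes, with intervals on either side of 0. The difference between the classes was not tested. How many of all genes do so was not counted, so the 3 are not a trait of the members. By 1.5-fold alone, between 7.44% (higher, NK cells) and 17.5% (lower, CD4 T cells) of all genes passed in 1 direction in the classes named here. Mki67 had a log2 ratio, KO over WT, of 1.19 in NK cells and -0.65 in Foxp3 T cells. Cenpe had one of 0.92 in NK cells and -0.89 in CD4 T cells. For Ube2c the values were 1.48 in CD4 T cells and -1.05 in Foxp3 T cells. Each rests on few dividing cells: Mki67 in KO NK cells had 29 of 82 UMIs in 1 cell, Cenpe in KO CD4 T cells had 38 UMIs in all, and Ube2c in KO Foxp3 T cells 26.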

How the results depend on the processing

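No paired analysis was possible because each genotype has 1 library. Of 166 alternative values for the dividing shares, balances and medians, 150 stayed within the interval of the main value and 16 did not. For a median this was the median half-width of single members, from 0.11 in tumour cells to 0.75 in NK cells. It is not a counting interval of the median and left the NK median much room. Of 245 values for single members, 227 stayed within their counting interval and 18 did not. No value past 1.5-fold changed sign. Of the values whose interval lay clear of 0, those that changed sign were the NK balance without Cenpa, Cenpf in macrophages without the highest Scrublet scores (-0.00075), and Cenpf (-0.043) and Dut (-0.0045) in macrophages without cells of 3 tumour UMIs; each new interval spans 0. For the log2 ratio of dividing shares, tumour cells gave 0.045 without thinning, 0.93 by the stricter call and 0.51 gated by Y-chromosome genes alone. The stricter call gave 1.37 in NK cells and -0.30 in macrophages. CD4 T cells gave -0.74 thinned to 1000 UMIs and 0.65 without a Ccr7 UMI. For the balance, gates halved gave 0.32 in tumour and 0.33 in Foxp3 T cells, gates doubled 0.68 in NK cells, dividing cells alone 0.30 in tumour, 0.29 in CD8 T and 0.11 in NK cells, and Cenpa left out 0.16 in CD8 T and -0.084 in NK cells. With gates halved the member median in tumour cells was 0.62. The causes were not tested. Over all alternatives the member median stayed between 0.40 and 0.62 in tumour cells, 0.15 and 0.34 in CD8 T cells, and 0.51 and 0.85 in NK cells, and the tumour share between 0.04 and 0.93. Settings that leave out cells with tumour UMIs or a Ccr7 UMI, or Cenpa, and the antibody and Ighd splits were chosen after the data were seen. Depth limits rare members: Ccnb1 in NK cells had 4 UMIs in KO and 4 in WT.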

Other observations

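Cells outside every class also held dividing cells. Cells with markers of more than 1 class were dividing in 44.1% of 1133 in KO and 47.6% of 700 in WT. Cells that reached no gate were dividing in 12.7% of 1337 in KO (10.98 to 14.6%) and 5.11% of 2447 in WT (4.27 to 6.06%), and by the stricter call in 5.31% in KO and 1.43% in WT. T cells with neither a clear CD8, CD4 nor Foxp3 pattern were dividing in 18.7% of 579 in KO and 13.4% of 516 in WT, and by the stricter call in 5.01% in KO and 4.26% in WT. Cenpa, which both calls count, had a UMI in 28.8% of these thinned T cells in KO and 28.1% in WT.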
